A study of Mus musculus with 12 samples.

Results

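The 8 genes described here encode the myosin chains of adult skeletal muscle fibers. They are the heavy chains *Myh4*, *Myh1*, *Myh2* and *Myh7* and the light chains *Myl1*, *Mylpf*, *Myl3* and *Myl2*. They were taken by name, through their mouse Gene IDs, from a table of 27179 genes, and 8 of 8 were found and passed the filter on low counts. The study asked what forced expression of *FRAIL1*, a human long noncoding RNA, does in mouse muscle. Poly(A) RNA was sequenced from 12 tibialis anterior (TA) muscles of WT male C57BL/6N mice, a wild-type inbred strain, obtained at 6 to 8 weeks of age and used within the following weeks. The 6 FRAIL1 muscles were electroporated with 10 µg of a pcDNA3-type plasmid carrying full-length human *FRAIL1* behind the CMV promoter, which is active in many cell types. The 6 Control muscles were the TAs of the other leg, electroporated with 10 µg of the same plasmid without an insert, and both legs were collected on day 7.

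All muscles therefore shared the injection, the electroporation and 7 days of recovery, and there was no untouched muscle. Each library is 1 whole muscle, so transfected and untransfected fibers and all other cells of the muscle were measured together. The mouse gene table holds no row for the human transcript, so the level of *FRAIL1* in each muscle was not analysed here. Total counts per muscle ranged from 45018389 to 59309210 in the Control group and from 44848322 to 60527385 in the FRAIL1 group. Over all genes, 974 of the 15502 tested had a Benjamini-Hochberg adjusted p under 0.05 in the quasi-likelihood test of edgeR, 687 of them higher and 287 lower in FRAIL1 muscle. The FRAIL1 muscle numbered 5 stood apart on fibroblast markers and on markers of satellite cells and regenerating fibers. Its summed level of 8 fibroblast markers was 6638 CPM (counts scaled to a common library size), against 2502 to 3246 in the other 5 FRAIL1 muscles and 1269 to 2420 in Control muscles. Its sum of 8 markers of satellite cells and regenerating fibers was 1563 CPM, against 332 to 664 and 169 to 219. That sum includes the developmental heavy chains *Myh3* and *Myh8*, at 541 and 876 CPM in this muscle. The sum of 8 skeletal muscle markers was 64585 to 75449 CPM in Control and 54114 to 69277 in FRAIL1 muscles, and the muscle labelled FRAIL1 5 was again the extreme, at the lowest value.

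Myosin is the motor of the thick filament. Each molecule pairs heavy chains, which carry the ATPase and set the speed of contraction, with essential and regulatory light chains that wrap the neck of each head. Adult limb muscle is a mosaic of fibers that differ in their heavy chain. *Myh4* encodes the fastest (type 2B) chain, *Myh1* the 2X chain, *Myh2* the 2A chain of fast oxidative fibers, and *Myh7* the slow type 1 chain shared with the heart. *Myl1* and *Mylpf* are the fast essential and regulatory light chains, and *Myl3* and *Myl2* are their slow counterparts, also used by the heart ventricle. The mouse TA is known as a predominantly fast muscle rich in 2B and 2X fibers.

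The 3 fast heavy chain genes lie next to each other on chromosome 11 and are read in the same direction. In the GRCm38.p6 RefSeq annotation (the build of mm10), *Myh2* (Gene ID 17882) spans 67171027 to 67197517, *Myh1* (17879) spans 67200102 to 67224577, and *Myh4* (17884) spans 67237812 to 67260447. *Myh7* (140781) lies apart from them, near the cardiac chain *Myh6*, on chromosome 14 at 54970684 to 54994626. The light chain genes are scattered. *Myl1* (17901) lies on chromosome 1 at 66924295 to 66947932, *Mylpf* (17907) on chromosome 7 at 127208848 to 127214288, *Myl3* (17897) on chromosome 9 at 110763678 to 110769802, and *Myl2* (17906) on chromosome 5 at 122092724 to 122113473.

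The 250 bases before the annotated start of each fast heavy chain gene are printed because these 3 neighboring promoters hold runs of identical sequence, the longest of 20 bases. They are RefSeq sequence of GRCm38.p6 on the plus strand, 5′ to 3′, at chr11:67170777-67171026 for *Myh2*, chr11:67199852-67200101 for *Myh1* and chr11:67237562-67237811 for *Myh4*. Capitals mark runs of at least 8 bases that all 3 windows share, in the same order.
Myh2: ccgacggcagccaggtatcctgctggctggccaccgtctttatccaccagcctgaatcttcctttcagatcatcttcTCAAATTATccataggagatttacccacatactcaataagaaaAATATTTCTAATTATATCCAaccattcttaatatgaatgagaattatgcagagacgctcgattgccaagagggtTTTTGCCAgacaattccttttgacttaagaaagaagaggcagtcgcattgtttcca
Myh1: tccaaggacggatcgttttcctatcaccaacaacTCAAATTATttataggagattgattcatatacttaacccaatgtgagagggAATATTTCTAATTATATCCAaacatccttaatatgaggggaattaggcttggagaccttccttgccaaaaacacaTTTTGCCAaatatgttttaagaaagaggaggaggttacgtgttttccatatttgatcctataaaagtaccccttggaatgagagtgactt
Myh4: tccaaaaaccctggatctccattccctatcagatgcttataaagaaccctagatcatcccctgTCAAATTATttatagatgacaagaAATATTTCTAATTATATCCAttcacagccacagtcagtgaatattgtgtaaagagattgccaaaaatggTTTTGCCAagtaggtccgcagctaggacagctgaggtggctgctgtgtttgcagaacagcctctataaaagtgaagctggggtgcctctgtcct
Each window held 3 such runs, 37 bases in all. The longest, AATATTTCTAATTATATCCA, is 20 bases long and began 130 bases before the start of *Myh2*, 165 before *Myh1* and 163 before *Myh4*. Searched on both strands of 32851 upstream windows of this length, it was found in 3 (0.00913%), those of *Myh1*, *Myh2* and *Myh4*, and it was not in the windows of the neighboring *Myh3*, *Myh8* or *Myh13*. The E-box letters CANNTG, which occur in 66.2% of all windows, were present at 2 positions before *Myh4* and at 0 before *Myh1* and *Myh2*. No binding or chromatin was measured in these samples.

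None of the 8 chains passed the threshold in the comparison without pairing (0 of 8 by edgeR, against 6.28% of all genes tested, 4.43% higher and 1.85% lower), and 1 of 8, *Myh4*, had an unadjusted p under 0.05. With the muscle number as a block, *Myh4* passed as lower (1 of 8, against 14.1% of all genes in either direction, 7.48% higher and 6.62% lower). It was also called as lower by DESeq2 (1 of 8, against 14.4% of all genes in either direction and 6.13% lower) and by limma with quality weights (1 of 8, against 11.3% and 5.24%), where DESeq2 gave no p for *Myh2*, *Myh7* and *Myl2*. Muscles with 1 number were taken as the 2 legs of 1 mouse. The labels give that both groups came from the same 6 mice, but not in so many words that a number marks a mouse.

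*Myh4*, the 2B chain, was the most abundant heavy chain in every muscle, also per kb of transcript. Control muscles 1 to 6 held 51024, 46199, 46620, 40802, 49077 and 41466 CPM. FRAIL1 muscles 1 to 6 held 37376, 39612, 40293, 34921, 22444 and 29835 CPM. On these TMM-scaled levels all 6 FRAIL1 values lay below the lowest Control value, the only member whose groups did not overlap. Of all genes tested 1.77% lay wholly below, 4.88% in either direction. The gap between FRAIL1 3 and Control 4 was narrow, and the separation depended on the scaling. By library totals alone FRAIL1 2 lay above Control 4 and Control 6, so the groups overlapped. The mean was 45865 ± 4064 CPM in Control and 34080 ± 6844 in FRAIL1 muscles (SD, n = 6), a log2 fold change of -0.43 (SE 0.127, 95% interval -0.70 to -0.16), or -25.7% with an interval from -38.4% to -10.4%. Its adjusted p was 0.0548 by edgeR without the block and 0.0328 with it, where the log2 fold change was -0.45 (SE 0.121). The FRAIL1 muscle had the lower value in 6 of 6 pairs, as did 11.7% of all genes.

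The size of the *Myh4* difference varied by pair. The log2 ratios of FRAIL1 to Control muscle were -0.45, -0.22, -0.21, -0.22, -1.13 and -0.47 for numbers 1 to 6. Pairs 2, 3 and 4 lay together near the smallest difference, and pair 5 stood far beyond the rest. Without FRAIL1 muscle 5 the log2 fold change was -0.34 and the adjusted p was 0.0283 by edgeR. Leaving out FRAIL1 muscle 2 or 3 also brought the adjusted p under the threshold, at 0.0374 and 0.0276, and leaving out any 1 of the other 9 muscles kept it above, up to 0.109. Over all 27 alternatives the adjusted p ranged from 5.56e-04 to 0.120, and it was under 0.05 in 10. In such whole-muscle samples, fewer fibers of a type and less mRNA per fiber cannot be told apart. By staining of other transfected muscles, the study reports that the proportions of the fast fiber types were similar. By mass spectrometry of muscles from a separate cohort, it reports no change in the heavy chain proteins of the main fiber types. No fiber counts or protein levels are given for the muscles sequenced here. The FRAIL1 muscle with the lowest *Myh4* was the one with the highest fibroblast and regeneration marker sums given above. Their part in the result was not tested.

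*Myh1*, the neighboring 2X gene, had its mean on the other side. Control muscles 1 to 6 held 12885, 16217, 15838, 15245, 14988 and 17284 CPM. FRAIL1 muscles 1 to 6 held 17450, 14904, 16753, 16963, 18401 and 17655 CPM. The groups overlapped, and in 5 of 6 pairs the level was higher on the FRAIL1 side, with pair 2 the exception. The log2 fold change was 0.14 (SE 0.0820, 95% interval -0.031 to 0.32), or 10.5% with an interval from -2.13% to 24.7%. The adjusted p was 0.269 by edgeR. Scaling by library totals alone gave 0.30 with an adjusted p of 0.0346 by edgeR, but that scaling also moved the median of all genes to 0.16, and relative to that median *Myh1* stood at 0.14 and *Myh4* at -0.45. The study counted reads with a single best place in the genome, so reads that match relatives equally well are left out. Of the 150-base windows of the longest *Myh1* transcript 6.22% also occur in *Myh2*, *Myh4*, *Myh8* or the antisense RNA *Myhas*. The shares were 3.59% for *Myh2* and 0.511% for *Myh4*. The strand setting of the counting is not given, so reads of *Myhas* and *Myh1* could not be told apart where the transcripts overlap.

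*Myh2*, the 2A chain, varied more among muscles than between groups. Control muscles 1 to 6 held 261, 349, 553, 264, 294 and 2133 CPM. FRAIL1 muscles 1 to 6 held 453, 395, 393, 325, 314 and 1448 CPM. In both groups muscle 6 was the highest by far, and the other 10 muscles all lay between 261 and 553 CPM. The log2 fold change was -0.21 (SE 0.631, adjusted p = 0.862 by edgeR), and with the block it was 0.053 (SE 0.171, adjusted p = 0.864). Leaving out both muscles numbered 6 gave 0.13 (adjusted p = 0.732). The sign of the *Myh2* difference thus turned with the fit.

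The slow chain *Myh7* was present at only a few CPM. Control muscles 1 to 6 held 5.39, 2.21, 2.28, 2.68, 3.48 and 3.20 CPM. FRAIL1 muscles 1 to 6 held 2.52, 2.38, 2.26, 1.58, 1.48 and 15.1 CPM. FRAIL1 muscle 6 was the highest of all 12 and the other 5 FRAIL1 muscles lay within or below the Control range. Each value rests on 110 to 265 reads in Control and 78 to 769 in FRAIL1 muscles. The fold change on the log2 scale was 0.39 (SE 0.575, adjusted p = 0.696 by edgeR). Without FRAIL1 muscle 6 it was -0.65 (adjusted p = 0.114), so that muscle decided its sign. Of the 150-base windows of *Myh7*, 6.50% also occur in *Myh6*, its cardiac neighbor, or in noncoding transcripts of that locus. Of 6 heart markers 3 were tested and 0 passed by edgeR, DESeq2 or limma (1, *Myh6*, by DESeq2 with the block, and 1 had an unadjusted p under 0.05), *Myl7* was listed at 0, and their sum was 7.81 to 9.54 CPM in Control and 4.15 to 9.08 CPM in FRAIL1 muscles.

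**Figure D1:**
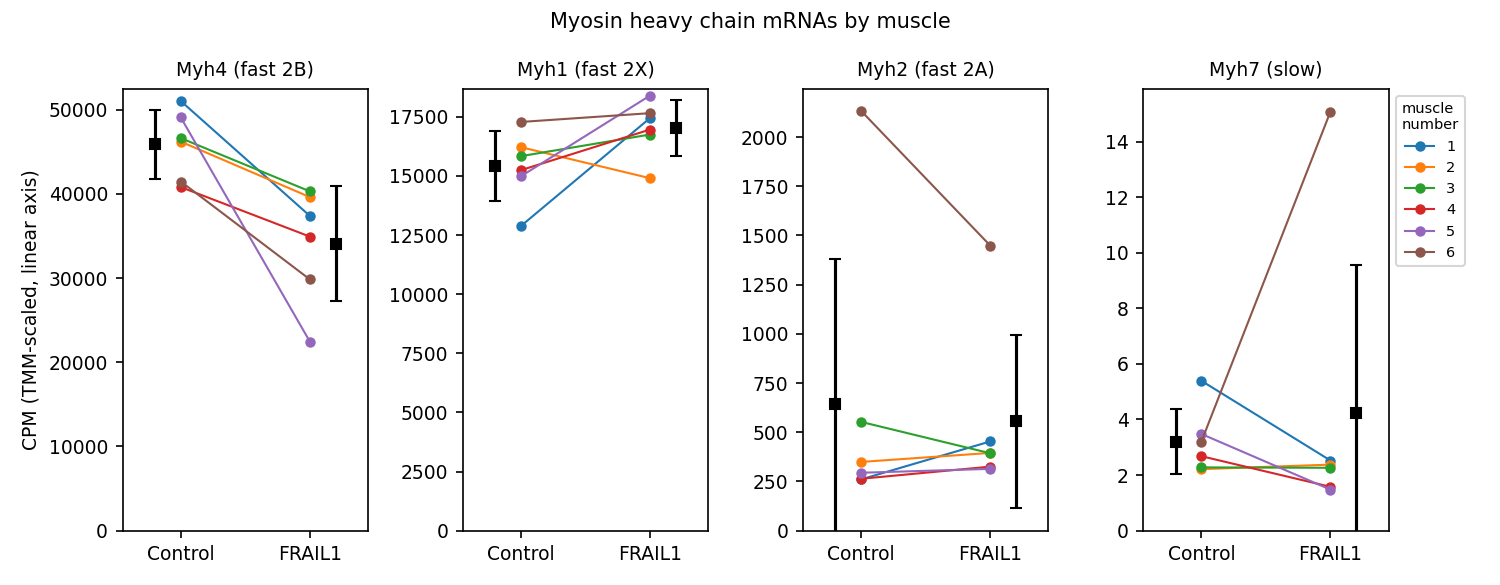
Level of the 4 heavy chain mRNAs (CPM, linear axes from 0) in Control and FRAIL1 muscles. Each colored line joins the muscles of 1 number, and black squares with bars are group means ± SD (n = 6, bars cut at 0). *Myh4* lines all descend, from 40802 to 51024 CPM in Control to 22444 to 40293 CPM in FRAIL1 muscles, *Myh1* lines mostly run upward within an overlapping range, and muscle 6 stands apart for *Myh2* in both groups and for *Myh7* in the FRAIL1 group.

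Levels of different genes were compared per kb of transcript, which gives the share of each chain in the heavy chain mRNA of a muscle. *Myh4* made up 79.7%, 73.8%, 74.2%, 72.7%, 76.4% and 68.3% of the 4 heavy chains in Control muscles 1 to 6. It made up 67.8%, 72.4%, 70.4%, 67.1%, 54.8% and 61.2% in FRAIL1 muscles 1 to 6. The groups overlapped on this share, unlike on the TMM-scaled level, because Control 6 lay below FRAIL1 2 and 3. The share was still lower on the FRAIL1 side of 6 of 6 pairs. The mean was 74.2% ± 3.79 against 65.6% ± 6.51, with a mean pair difference of -8.58 percentage points ± 7.29 (SD, n = 6), from -21.7 to -1.46.

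*Myh1* held almost all of the remainder. Its share was 24.8% ± 2.94 in Control and 33.3% ± 6.25 in FRAIL1 muscles, higher in 6 of 6 pairs by 8.52 points ± 7.16. It was highest in FRAIL1 5 (44.4%) and FRAIL1 6 (35.8%). The ratio of *Myh4* to *Myh1* per kb was 2.43 to 4.0 in Control and 1.23 to 2.69 in FRAIL1 muscles, lower in 6 of 6 pairs, and this ratio within a library is untouched by how libraries are scaled. *Myh2* took 3.48% in Control 6 and 2.94% in FRAIL1 6, and at most 0.870% in the other 10 muscles. *Myh7* did not exceed 0.0299%. Shares sum to a whole, so a lower share of 1 chain requires a higher share of another. They are given without a test.

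**Figure D2:**
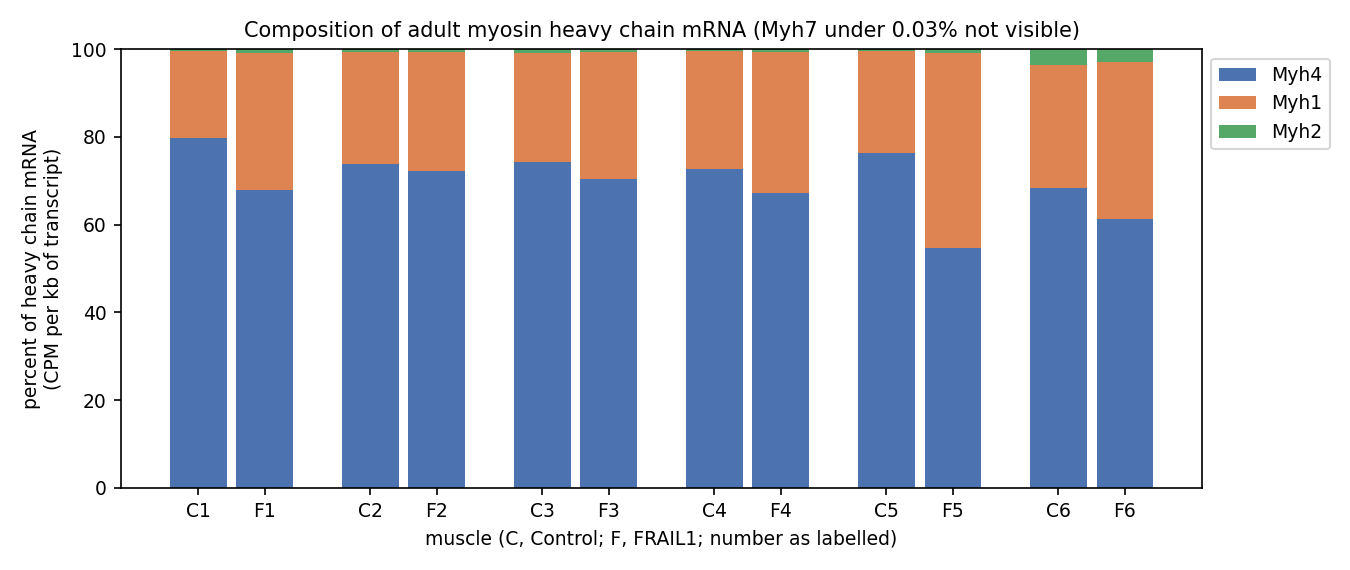
Composition of heavy chain mRNA in each muscle (percent of summed CPM per kb of transcript), Control (C) and FRAIL1 (F) side by side for each muscle number. In every pair the *Myh4* segment is shorter on the FRAIL1 side, most in pair 5 (76.4% against 54.8%), and the *Myh2* segment is visible mainly in muscles 6.

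The fast light chains had nearly equal levels in both groups. *Myl1*, the fast essential chain, ranged from 7217 to 8556 CPM with a median of 7895 in Control muscles and from 7176 to 8716 with a median of 7616 in FRAIL1 muscles. *Mylpf*, the fast regulatory chain, ranged from 7814 to 9849 with a median of 8328 in Control and from 7574 to 9509 with a median of 8540 in FRAIL1 muscles. For both genes the ranges of the groups nearly coincided, and the pairs split, with 2 of 6 higher in FRAIL1 for *Myl1* and 3 of 6 for *Mylpf*. The log2 fold change of *Myl1* was -0.033 (SE 0.0723, 95% interval -0.19 to 0.12), which is -12.1% to 8.75%, and its adjusted p was 0.803 by edgeR. That of *Mylpf* was 0.0048 (SE 0.0842, interval -0.17 to 0.18), which is -11.4% to 13.6%, with an adjusted p of 0.979. The interval of neither gene reached the -25.7% estimated for *Myh4*. The 95% interval of *Myh4* itself, -0.70 to -0.16 on the log2 scale, overlapped both. The sum of the 4 light chains over the sum of the 4 heavy chains, per kb, was 1.65 to 1.93 in Control and 1.88 to 2.74 in FRAIL1 muscles, higher in 6 of 6 pairs. The difference between the *Myh4* and light chain changes was not itself tested.

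The slow light chains were scarce and varied widely. *Myl3*, the slow essential chain, held 32.8, 52.8, 65.7, 29.9, 54.0 and 139 CPM in Control muscles 1 to 6. It held 32.6, 27.1, 55.5, 32.1, 8.04 and 112 CPM in FRAIL1 muscles 1 to 6. As with *Myh2*, muscle 6 was highest in both groups, and FRAIL1 5 was the lowest of all 12, at 430 reads. The log2 fold change was -0.49 (SE 0.567, adjusted p = 0.614 by edgeR). It was -0.64 (adjusted p = 0.332) with the block. With 1 muscle left out it ranged from -1.01 without FRAIL1 6 to -0.082 without Control 6, and it was -0.27 without FRAIL1 5.

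*Myl2*, the slow regulatory chain, had the fewest reads of the 8 chains. It held 1.02, 0.714, 0.993, 0.284, 0.987 and 1.97 CPM in Control muscles 1 to 6. It held 0.821, 0.379, 0.343, 0.526, 0.430 and 5.76 CPM in FRAIL1 muscles 1 to 6. FRAIL1 6 was again the extreme, the same muscle that was highest for *Myh7*. The values rest on 14 to 90 reads in Control and 20 to 294 in FRAIL1 muscles. The fold change on the log2 scale was 0.47 (SE 0.748, adjusted p = 0.725 by edgeR), and without FRAIL1 6 it was -1.0 (adjusted p = 0.135). *Myl3* made up 0.915% ± 0.636 of the essential pair *Myl1* plus *Myl3* in Control and 0.667% ± 0.572 in FRAIL1 muscles, per kb.

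**Figure D3:**
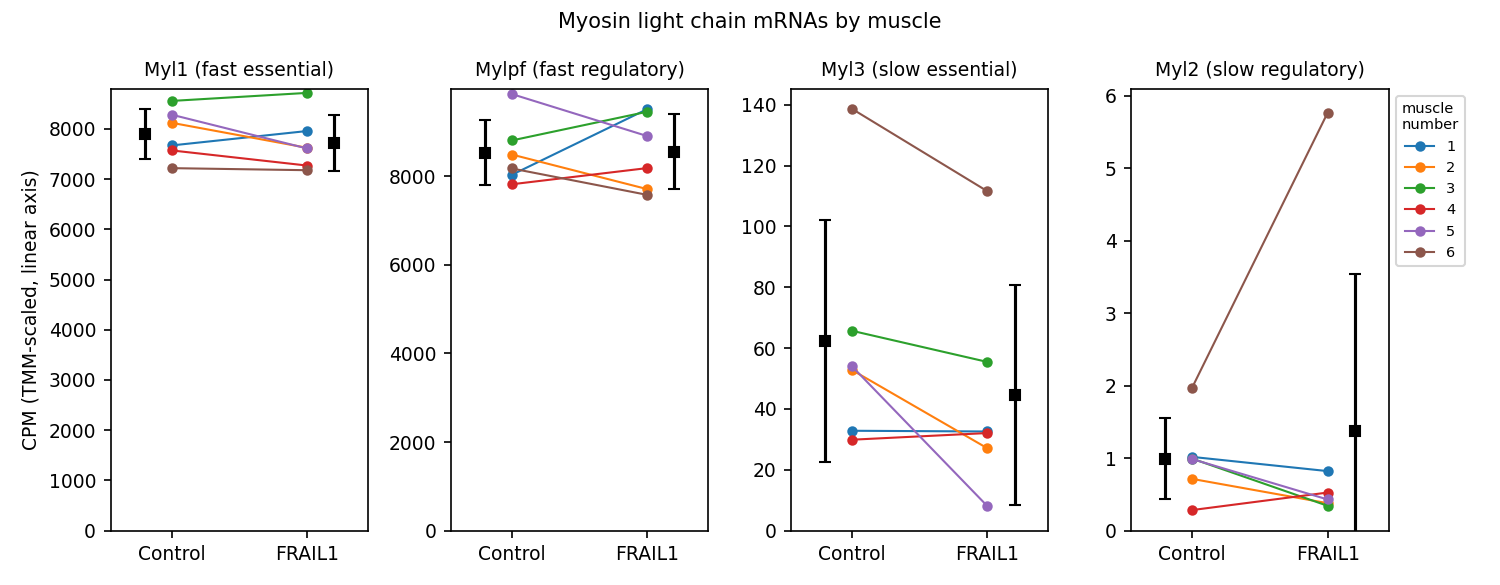
Level of the 4 light chain mRNAs (CPM, linear axes from 0) in Control and FRAIL1 muscles, lines joining muscles of 1 number and black squares with bars giving group means ± SD (n = 6, bars cut at 0). *Myl1* and *Mylpf* stay between 7176 and 9849 CPM in all 12 muscles, while *Myl3* is highest in muscle 6 of both groups and *Myl2* in FRAIL1 muscle 6.

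Ordered by level per kb in Control muscles, *Mylpf* came first with a mean of 11129 CPM per kb. *Myh4* (7624) and *Myl1* (7304) followed and did not differ beyond their spread. *Myh1* stood at 2534, then *Myh2* at 106 and *Myl3* at 66.5, whose ranges overlapped, and last *Myl2* at 1.12 and *Myh7* at 0.515, which overlapped as well. In the FRAIL1 group the order of *Myh4* and *Myl1* was exchanged, with *Myl1* at 7139 (range 6633 to 8055) and *Myh4* at 5665 (3731 to 6698), ranges that overlapped slightly. All other places in the order were the same. Together the 8 mRNAs took 7.05% to 7.80% of all counts in Control and 6.80% to 7.56% in FRAIL1 muscles.

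The fast heavy chains share their chromosome 11 cluster with the developmental chains *Myh3* (embryonic) and *Myh8* (perinatal), which mark forming and regenerating fibers, with *Myh13* (the extraocular chain) and with the long noncoding RNA *2310065F04Rik*. In chromosome order the genes are *Myh3*, *2310065F04Rik*, *Myh2*, *Myh1*, *Myh4*, *Myh8* and *Myh13*. *Myh3* ranged from 41.6 to 62.6 CPM in Control and from 105 to 541 in FRAIL1 muscles. *Myh8* ranged from 84.9 to 109 and from 153 to 876. Both rose without overlap of the groups, by a log2 fold change of 2.16 (SE 0.373, adjusted p = 0.0124 by edgeR) for *Myh3* and 1.84 (SE 0.390, adjusted p = 0.0227) for *Myh8*. The rise of *Myh8* was past the threshold in 10 of 12 fits that left out 1 muscle, and leaving out Control 2 or 3 ended it, with an adjusted p of up to 0.0519. Without both muscles 6 the adjusted p was 0.0600, and 0.0723 with the block as well.

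*2310065F04Rik*, which lies between *Myh3* and *Myh2*, ranged from 106 to 121 CPM with a median of 115 in Control and from 18.2 to 90.3 with a median of 62.5 in FRAIL1 muscles. All FRAIL1 values lay below all Control values and 6 of 6 pairs were lower, with a log2 fold change of -0.93 (SE 0.272), but the adjusted p of 0.0596 by edgeR, and of 0.0717 with the block, missed the threshold. Over 27 alternatives the adjusted p was 8.29e-04 to 0.129 and under 0.05 in 9, among them DESeq2 (0.0172), limma (0.0130) and the edgeR fits without FRAIL1 3 (0.0295) or FRAIL1 5 (0.00161). FRAIL1 muscle 5 had the lowest value of *Myh4* and of *2310065F04Rik* and the highest of *Myh3* and *Myh8* among all 12. *Myh13*, at 8.08 to 15.8 CPM, had a log2 fold change of -0.29 (adjusted p = 0.173).

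**Figure D4:**
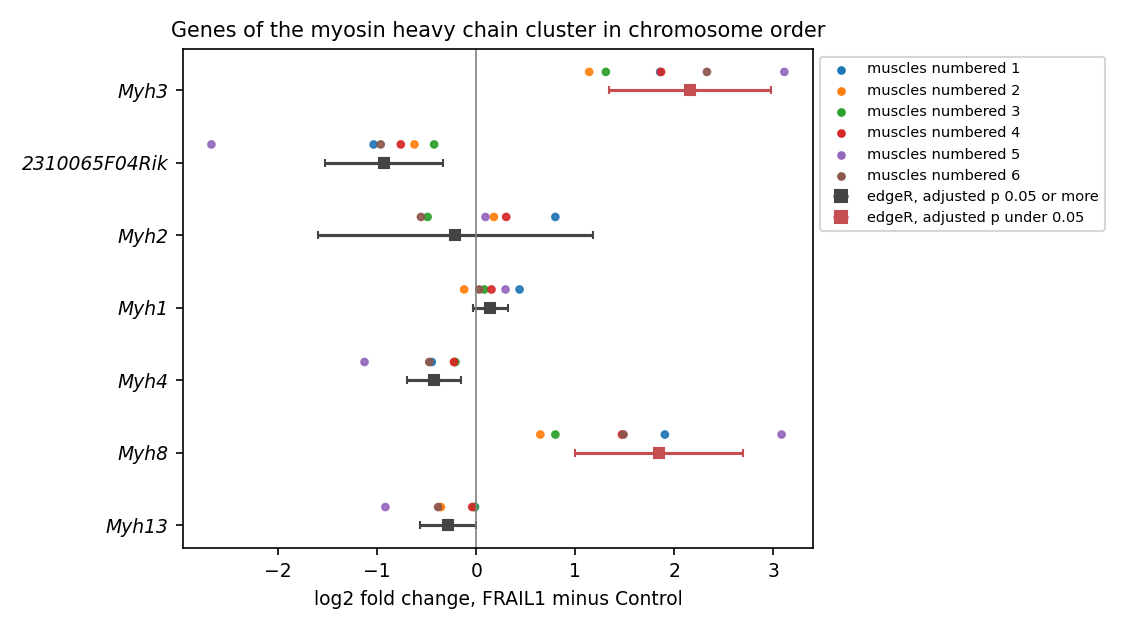
Log2 fold change, FRAIL1 minus Control, of the 7 genes of the heavy chain cluster in chromosome order. Squares and bars are the edgeR estimate and its 95% interval (red, adjusted p under 0.05), and colored points are the log2 ratios of the 6 muscle pairs. *Myh3* (2.16) and *Myh8* (1.84) lie to the right, *2310065F04Rik* (-0.93) and *Myh4* (-0.43) to the left, and pair 5 is the outermost point of *Myh3*, *2310065F04Rik*, *Myh4*, *Myh8* and *Myh13*.

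Among the other sarcomeric myosins several rose. Of 9 genes listed 7 were tested, and 4 rose, *Myh3*, *Myh8*, the embryonic and atrial light chain *Myl4* (log2 fold change 1.88, SE 0.310, adjusted p = 0.0104 by edgeR) and *Myl6b*, a light chain of slow muscle and nonmuscle cells (1.33, SE 0.313, adjusted p = 0.0327). Of all genes tested, 6.28% passed by edgeR, 4.43% as higher and 1.85% as lower. The other 3 of the 7 myosins, *Myh6*, *Myh7b* and *Myh13*, did not pass by edgeR. Each was lower in 6 of 6 pairs, as were 11.7% of all genes. All 7 had an unadjusted p under 0.05 by edgeR. Limma called *Myh7b* lower, and DESeq2 with the block called *Myh6* and *Myh7b* lower. The list thus went both ways, with 4 positive and 3 negative log2 fold changes. Its median of 1.33 was the value of *Myl6b*, the smallest of the 4 rises, against 0.0096 over all genes. Without FRAIL1 5 the median was 0.94. *Myl6b* was past the threshold in 4 of 12 fits that left out 1 muscle. Without Control 2 or 3 the list had 2 calls, *Myh3* and *Myl4*. Of 8 smooth muscle and nonmuscle myosins 0 passed by edgeR, DESeq2 or limma, 1 (*Myh11*) passed as lower by DESeq2 with the block, and 1 had an unadjusted p under 0.05 by edgeR.

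Of 8 markers of satellite cells and regenerating fibers 5 rose by edgeR. These were the regulator *Myog*, the fusion genes *Mymk* and *Mymx*, and the chains *Myh3* and *Myh8* already described. The other 3, *Pax7*, *Myf5* and *Myod1*, did not pass by edgeR without the block, and all 8 passed as higher with it. DESeq2 called all 8 higher, with or without the block, and limma called the same 5 as edgeR. The summed level of the 8, which includes *Myh3* and *Myh8*, was 169 to 219 CPM in Control and 332 to 1563 in FRAIL1 muscles. Of 9 genes known to rise in denervated muscle 6 rose, among them the acetylcholine receptor subunits *Chrna1*, *Chrng* and *Chrnd*, with sums of 92.6 to 139 and 200 to 349 CPM. *Myh3*, *Myh8* and *Myog* stand in more than 1 of these lists. Over all genes, edgeR called 4.43% higher and 1.85% lower. In either direction 14.1% passed with the block, 14.4% by DESeq2 and 11.3% by limma. Of 10 macrophage markers 0 passed by edgeR (7 at an unadjusted p under 0.05, 6 with the block, 6 by DESeq2, 2 by limma), with sums of 246 to 384 and 311 to 791 CPM. Of 6 endothelial markers 2 fell (*Tek* and *Flt1*, of which *Tek* alone passed when Control 1, 2, 3, 4 or 6 or FRAIL1 1 or 6 was left out), with sums of 384 to 438 and 298 to 388 CPM. The part of these cells and fibers in the levels of the adult chains was not tested.

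Fast myosin is accompanied by fast forms of the thin filament and calcium handling proteins. Of 16 fast fiber partners 0 passed by edgeR without the block, 9 had an unadjusted p under 0.05, and 14 had negative log2 fold changes, with a median of -0.24. With library totals as the only scaling the median was -0.10 and 14 were again negative, against an all-gene median of 0.16. The block called 3 as lower (*Actn3*, *Mylk2* and *Ampd1*), DESeq2 called 8 and limma 7, all lower, against 6.62%, 6.13% and 5.24% of all genes called lower by these fits. EdgeR with another scaling (DESeq2 size factors, upper quartile, or TMM without mitochondrial and top genes) or with a minimum count in every muscle called 2, *Tnni2* and *Tpm1*. *Tnni2*, fast troponin I, held 4267 to 5512 CPM in Control and 3228 to 4171 in FRAIL1 muscles, groups that did not overlap (log2 fold change -0.29, SE 0.0838, adjusted p = 0.0525 by edgeR). The fast troponins *Tnnt3* (-0.24, adjusted p = 0.0777) and *Tnnc2* (-0.23, adjusted p = 0.0827) and the fast calcium pump *Atp2a1* (-0.27, adjusted p = 0.107) were alike in size. *Tnni2*, *Tnnt3*, *Tnnc2* and *Atp2a1* were each called lower by DESeq2, by DESeq2 with the block and by limma, but not by edgeR with the block. The study reports lower *Tnnt3* mRNA, and lower TNNT3 protein in its separate cohort. Without FRAIL1 3, 7 of 16 passed as lower, and 2 passed without FRAIL1 5. Lower calls over all genes moved as well. They were 882 of 15607 without FRAIL1 3 and 393 of 15590 without FRAIL1 5, against 287 of 15502 with all muscles.

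Among the genes that accompany slow myosin several rose. Of 14 listed, 7 rose and 0 fell by edgeR, against 4.43% of all genes called higher and 1.85% lower. An unadjusted p under 0.05 by edgeR was found for 9. The median log2 fold change was 0.96, while *Myh7*, *Myl3* and *Myl2* did not pass. The difference between partners and chains was not tested, and *Myl6b* stands in this list and in that of the sarcomeric myosins. Slow troponin I, *Tnni1*, held 18.6 to 27.1 CPM in Control and 41.8 to 222 in FRAIL1 muscles (log2 fold change 2.27, SE 0.361, adjusted p = 0.00817 by edgeR). Slow troponin T, *Tnnt1*, rose by 1.77 (SE 0.264, adjusted p = 0.00526), slow and cardiac troponin C, *Tnnc1*, by 1.58 (SE 0.296, adjusted p = 0.0145), and the slow calcium pump *Atp2a2* by 0.90 (SE 0.15, adjusted p = 0.00770). For these 4 the groups did not overlap (3.12% of all genes lay wholly above), and the calls held in all 12 fits that left out 1 muscle. *Casq2*, *Myl6b* and *Myom3* also passed. DESeq2 called 8, all higher, limma called 7 higher and 1 lower (*Myh7b*), and DESeq2 with the block called 9 higher and 1 lower (*Myh7b*). Over all genes, 14.4% passed by DESeq2 and 11.3% by limma in either direction. The block called 5, all higher, against 7.48% of all genes called higher. Without the block, leaving out Control 1, 2, 4 or 5 or FRAIL1 1 or 4 left 4 calls, *Tnni1*, *Tnnt1*, *Tnnc1* and *Atp2a2*. In these fits 364 to 527 genes passed over all genes, against 974 with all muscles. Slow troponin genes are also used by immature fibers, as background, and the regeneration markers rose in the same muscles. Their part in the result was not tested.

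**Figure D5:**
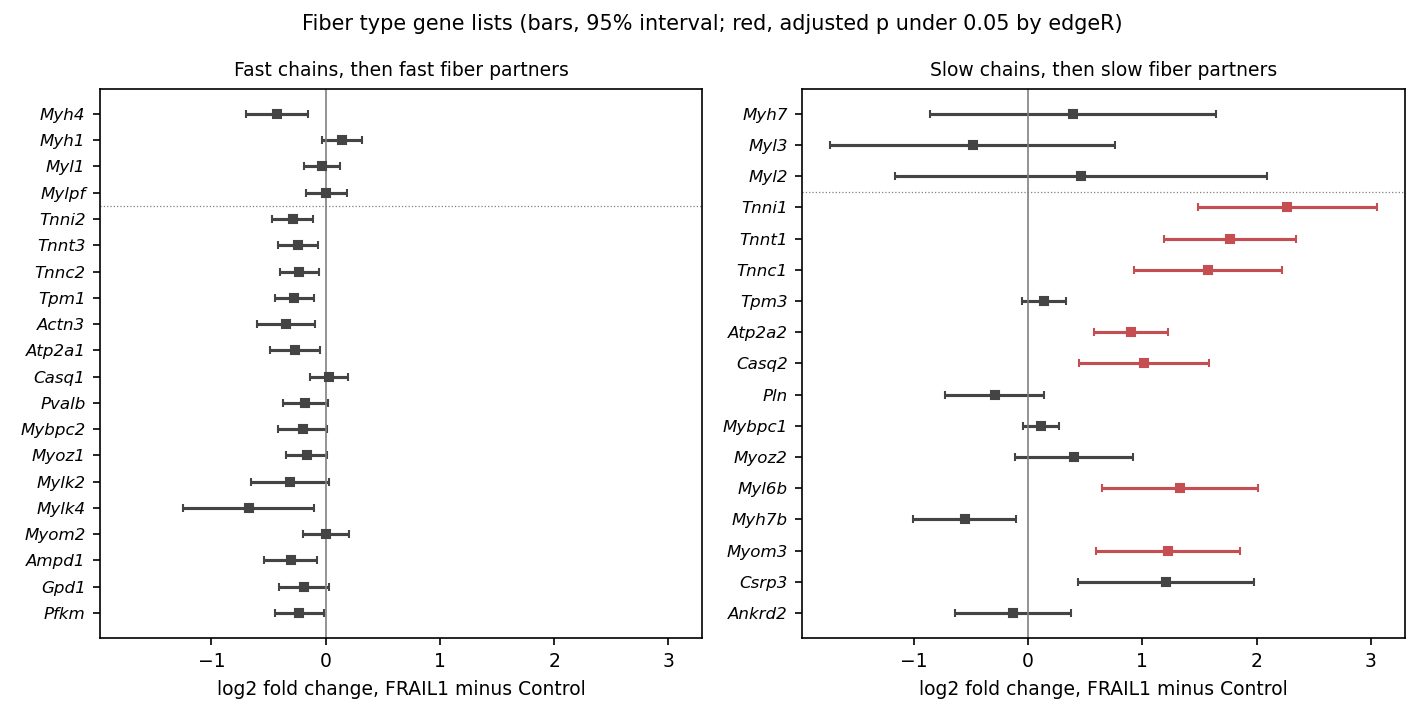
Log2 fold change, FRAIL1 minus Control, of the fast chains and fast fiber partners (left) and of the slow chains and slow fiber partners (right), with 95% intervals from edgeR and red for an adjusted p under 0.05. The fast chain *Myh2* is not drawn. On the left 0 of the genes are red and 14 of 16 partners lie left of 0, and on the right 7 of 14 partners are red while the slow chains *Myh7*, *Myl3* and *Myl2* have wide intervals across 0.

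Thick filaments are built and turned over by chaperones, binding proteins and ligases. Of 16 assembly and turnover genes 2 rose, the myosin-binding protein *Mybph* (log2 fold change 1.06, SE 0.171, adjusted p = 0.00681 by edgeR) and the M-band protein *Myom3* (1.22, SE 0.289, adjusted p = 0.0336), and 0 fell by edgeR (10 had an unadjusted p under 0.05). The median was -0.20, and the block called 4, 1 higher and 3 lower. DESeq2 and limma each called 7, 2 higher and 5 lower, and DESeq2 with the block called 11, 2 higher and 9 lower. Over all genes tested, 6.28% passed by edgeR, 14.1% with the block, 14.4% by DESeq2 and 11.3% by limma. DESeq2 with the block called 2898 of 15502. Leaving out FRAIL1 2, 3 or 5 gave 5, 7 and 4 calls, where 1579, 2110 and 969 genes passed over all genes. Leaving out Control 1, 2, 4 or 5 or FRAIL1 1 or 4 left 1, *Mybph*, where 364 to 527 passed over all genes. *Unc45b*, the myosin chaperone, stood at -0.18 (adjusted p = 0.138), *Smyd1*, a methyltransferase needed for thick filament assembly, at -0.18 (adjusted p = 0.161), and *Trim63* (MuRF1), a ubiquitin ligase that targets myosin, at -0.31 (adjusted p = 0.274).

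Among 37 regulators of fiber type 1 passed, *Myog*, a driver of late differentiation, which rose by 1.46 on the log2 scale (SE 0.261, adjusted p = 0.0124 by edgeR). The median of the list was -0.082. *Sox6*, a repressor of slow fiber genes, stood at -0.33 (adjusted p = 0.0811) and passed with the block (adjusted p = 0.0138). *Ppargc1a*, a coactivator of oxidative fibers, stood at -0.14 (adjusted p = 0.312), and *Mafa*, one of the large Maf factors tied to 2B fibers, at 0.10 (adjusted p = 0.80). The count of 1 of 37 stands against 6.28% of all genes. The block called 8 of 37, 2 higher and 6 lower, against 14.1%. DESeq2 called 8 (6 lower, against 14.4% of all genes called), DESeq2 with the block 12 (9 lower) and limma 6 (5 lower, against 11.3%). By edgeR, leaving out FRAIL1 3 gave 8, FRAIL1 2 gave 3, and FRAIL1 5 or 6 gave 2. Over all genes, 2110 passed without FRAIL1 3, 1579 without FRAIL1 2, 969 without FRAIL1 5 and 601 without FRAIL1 6.

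The genes most like each heavy chain were sought by Pearson's r of log2 CPM over the 12 muscles among 13002 tested genes with a mean of at least 1 CPM. The points share the 2 groups, the 6 mice and the scaling of each library, and the values are descriptive. Among the genes most like *Myh4* were *Actn3*, the fast Z-disc actinin (r = 0.99), and *Pygm*, muscle glycogen phosphorylase (0.984). *Pygm* held 11330 ± 458 CPM in Control and 9257 ± 1564 in FRAIL1 muscles (SD, n = 6), a log2 fold change of -0.29 with an adjusted p of 0.0921 by edgeR.

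*Myh1* was most like *Gli2* (r = 0.955), *Rab11fip5* (0.927) and *Tacc1* (0.914). *Myh2* was most like *Aldh2* (0.942), *Smtnl1* (0.935) and *Idh2*, the mitochondrial isocitrate dehydrogenase (0.932). The rank correlations were 0.804, 0.909 and 0.552 in the same order. *Idh2* held 197 and 180 CPM in the Control and FRAIL1 muscles numbered 6, against group means of 105 and 109. *Myh7* was most like *Thop1* (0.853), the gene with Gene ID 791088, for which no symbol was found (0.843), and *Plgrkt* (0.793).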

How the data were processed

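RNA-seq was done on 12 TA muscles, 6 Control and 6 FRAIL1. Per the labels and the study's methods, the authors trimmed 150-base paired reads with Trimmomatic, aligned them to mm10 with STAR 2.7.8a and counted uniquely placed reads per gene with featureCounts 2.0.1. The annotation version and the strand setting are not given in the sources used here. The deposited table holds raw, whole-number counts for 27179 Gene IDs, of which 25275 matched a symbol (0.28% of counts did not).

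Genes were filtered with filterByExpr (15502 kept of 21534 with a count), scaled by TMM and compared with edgeR 4.0.16 (robust quasi-likelihood test, group only, Benjamini-Hochberg over all genes tested, threshold 0.05) in R 4.3.3. CPM use the TMM library sizes, and levels per kb divide by the longest GENCODE transcript. Shares and ratios are descriptive. The members and gene lists were chosen with earlier results of these data known. Genes named are the 8 chains, their cluster neighbors, list genes past the threshold (at most 5 by fold change) plus a fixed set of troponins, calcium pumps, assembly genes and regulators, and the 3 genes most like each heavy chain. Some genes that this rule names are not reported here. Other genes (*Casq2*, *Actn3*, *Mylk2*, *Ampd1*, *Mymk*, *Mymx* and the receptor subunits) were named after their values were seen.

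The labels number both groups 1 to 6 and describe 2 legs of 6 mice. Deviations from the group means correlated at 0.236, 0.155, 0.264, 0.245, 0.0479 and 0.176 for equal numbers, against a mean of -0.0375 for unequal ones, so the muscle number was also fitted as a block. DESeq2 1.42.0, limma 3.58.1 (voom with quality weights), other scalings and filters, and fits without 1 muscle or without 1 number were the alternatives. With 44848322 to 60527385 counts per muscle, counting error was small for all chains but *Myl2* and *Myh7*. No 2 libraries of a group agreed within sampling noise.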

Additional observations from a re-analysis of the deposited data

Results flagged for a closer look

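Of 36 groups of 6 muscles checked, 13 had a highest or lowest muscle whose gap to the nearest other, over the whole range of the group, was above Dixon's value of 0.625. Chance gives such a gap in about 1 of 20 groups, and the levels and shares of 1 gene are not independent. All 13 were highest values, 11 of them in muscles numbered 6.

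In Control muscle 6, *Myh2* was 2133 CPM (next 553), *Myl3* was 139 CPM (next 65.7), *Myh2* took 3.48% of heavy chains (next 0.870%) and *Myl3* took 2.17% of *Myl1* plus *Myl3* (next 0.879%). In FRAIL1 muscle 6, *Myh2* was 1448 CPM (next 453), *Myh7* was 15.1 CPM (next 2.52) and *Myl2* was 5.76 CPM (next 0.821). In the same muscle *Myh2* took 2.94% of heavy chains (next 0.814%), *Myh7* took 0.0299% (next 0.00442%), *Myl3* took 1.76% of its pair (next 0.729%) and *Myl2* took 0.0655% of *Mylpf* plus *Myl2* (next 0.00744%). In FRAIL1 muscle 5, *Myh3* was 541 CPM (next 216) and *Myh8* was 876 CPM (next 390).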

How the results depend on the processing

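Of 330 recomputed values, 247 kept their direction and side of the threshold or stayed within the allowed range. The all-gene count was 2186 with the replicate block, 2232 with DESeq2, 2898 with DESeq2 and the block, 1756 with limma, 2305 without both muscles 5 (with the block), 217 without both muscles 6, 2627 with library totals only (2480 higher and 147 lower, against 687 and 287), and 364 to 2110 with 1 muscle left out. *Myh4* (log2) passed at -0.45 with the block, -0.44 with DESeq2, -0.46 with DESeq2 and the block, -0.43 with upper-quartile scaling, -0.30 with library totals, -0.39 with limma and -0.32 without both muscles 5 with the block (left-out range -0.48 to -0.34). *Myh1* passed at 0.30 with library totals.

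Signs turned for uncalled members. *Myh2* was 0.053 with the block, 0.047 with DESeq2 and the block, 0.20 with limma, 0.042 without both muscles 5 with the block, and 0.13 and 0.18 without both muscles 6, without and with the block (left-out range -0.77 to 0.69). In the order block, DESeq2 with the block, without both muscles 6, and the last with the block, *Myh7* was -0.13, -0.19, -0.65 and -0.60 (range -0.65 to 0.60) and *Myl2* was -0.19, -0.26, -0.68 and -0.65 (range -1.0 to 0.78). *Myl1* was 0.11 with library totals. *Mylpf* was -0.0024 with DESeq2 or its size factors, -0.0039 with DESeq2 and the block and -0.012 with limma (range -0.030 to 0.050).

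With the block 3 fast partners, 4 assembly genes and 8 regulators passed. With 1 muscle left out the counts ran from 0 to 7 for fast partners, 4 to 8 for slow partners, 2 to 4 for other sarcomeric myosins, 1 to 7 for assembly genes and 1 to 8 for regulators. DESeq2 without the block gave no p for *Myh2*, *Myh7* and *Myl2*. The cause of these shifts was not tested. Depth limits *Myl2* and *Myh7* most, with as few as 14 and 78 reads in a muscle.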
